A study of Mus musculus with 12 samples.

Results

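A group of 8 microRNAs known to change in dystrophic or regenerating muscle was examined in the quadriceps of mice that lack cofilin-2. On the array they are named mmu-miR-21, mmu-miR-31, mmu-miR-34a, mmu-miR-34c, mmu-miR-146a, mmu-miR-146b, mmu-miR-155 and mmu-miR-335-5p, and the prefix for mouse is left out below. They were taken by name, without starred or other -3p strands, from the 1096 miRNA names of a mouse array built on miRBase version 17. The mice were of strain C57Bl/6 and 7 days old. The cofilin-2 null group (Cfl2-KO, samples KO1 to KO6) and the wild-type group (WT1 to WT6) each held 6 samples. Cofilin-2 is the cofilin of skeletal muscle, a protein that remodels actin filaments. The messenger RNA of the targeted gene was not measured on this array, so the genotype labels could not be checked on it. Each sample was a separate mouse, and WT mice were littermates of KO mice, although no label ties a WT to a KO sample. The values are normalized probe intensities on a linear scale. An intensity can be compared between samples for 1 probe, but not between probes. All WT samples were labelled with Cy5 and all KO samples with Cy3, so that genotype and dye cannot be told apart in any comparison below.

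A mature miRNA guides a silencing complex to messenger RNAs that pair with its seed, the bases near its 5′ end. In muscle, miR-31, miR-34c and miR-335 are known to rise during regeneration, miR-21 is induced with fibrosis and in macrophages, miR-34a is a target of p53, and miR-146a, miR-146b and miR-155 are induced by inflammatory signalling. Damaged muscle also draws in leukocytes, and whole tissue was measured, so that fewer cells of a type and less RNA per cell cannot be told apart.

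RefSeq mature sequences were found for 7 of the 8 by name. They are given 5′ to 3′, with the seed (bases 2 to 8) in capitals. The seed bears on which of these miRNAs may share targets. Likeness over the whole sequence bears on which probes may see near-identical RNAs.
miR-21: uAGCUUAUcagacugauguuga
miR-31: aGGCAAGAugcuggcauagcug
miR-34a: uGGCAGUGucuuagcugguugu
miR-146a: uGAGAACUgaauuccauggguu
miR-146b: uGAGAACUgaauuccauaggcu
miR-155: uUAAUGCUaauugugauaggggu
miR-335-5p: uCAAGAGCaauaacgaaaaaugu
The seed of miR-146a and miR-146b is the same, and these sequences are identical at 20 of 22 bases. Counted from 1 at the 5′ end, from miR-146a to miR-146b, the differences are G18A and U21C. How far either probe binds the other miRNA is not stated in the sources used here, so the pair of readings may not be separate. The seed of miR-34a is shared with miR-34b-5p, miR-449a and miR-449c. No sequence was found for the strand named miR-34c, so its seed was not compared. In GRCm38.p6 the mature sequences lie at chr11:86584120-86584141 (miR-21, minus strand, within the span of Vmp1), chr4:88910614-88910635 (miR-31, minus strand, within the long noncoding gene Gm49890), chr4:150068473-150068494 (miR-34a, plus strand), chr11:43374435-43374456 (miR-146a, minus strand), chr19:46342790-46342811 (miR-146b, plus strand, within the long noncoding gene Gm36493), chr16:84714143-84714165 (miR-155, plus strand, within its host gene Mir155hg) and chr6:30741314-30741336 (miR-335-5p, plus strand, within the span of the imprinted gene Mest). Mir34c lies 452 bases from Mir34b, within the spans of Btg4 and Hoatz.

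Within each sample the median intensity over all names was 12 to 14, and summed intensities ran from 594311 to 636136. KO1 stood apart from its group, with a mean correlation of 0.848 with the other KO samples across the 370 miRNAs tested, against 0.907 to 0.945 for KO2 to KO6 and 0.949 to 0.970 in WT. Results that rest on it are given with and without it where both were computed. Leaving it out was chosen for these after the data were seen. The tissue label was checked with 4 of 5 muscle miRNAs found in the table (miR-1a, miR-133a, miR-133b and miR-206), whose summed intensity was 81000 to 93229 in WT and 78874 to 105680 in KO. Of the leukocyte markers, miR-142-3p, miR-142-5p and miR-223 were at 15 or less in every sample, and the sum of the 4 markers with miR-150 was 31 to 62 in WT and 33 to 63 in KO. The erythroid pair miR-451 and miR-144 summed to 49 to 420 in WT and 18 to 318 in KO. The smooth muscle pair miR-143 and miR-145 summed to 3555 to 4909 in WT and 3241 to 6241 in KO. Taken singly, the log2 change was -0.02 for miR-143. For miR-145 it was -0.60 (unadjusted p = 0.0561 and adjusted p = 0.261 from limma). The endothelial pair, almost all miR-126-3p, summed to 2233 to 4745 in WT and 765 to 2709 in KO (log2 change of miR-126-3p -1.20, unadjusted p = 0.00193 and adjusted p = 0.0615 from limma). Its part in the readings below was not tested.

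None of the 8 miRNAs separated the genotypes. KO and WT intensities overlapped for every one of them, where 2.43% of all miRNAs tested had groups that did not overlap. A mean intensity of at least 32 over the 12 samples was needed for testing, and 4 of the 8 reached it (miR-21, miR-31, miR-146a and miR-335-5p). Of these 4, none passed an adjusted p of 0.05 in limma and none an unadjusted p of 0.05, where 1.35% and 19.5% of the 370 tested miRNAs did. The latter were 9.73% higher and 9.73% lower in KO. Without KO1 again none of the 4 passed either threshold, where 13.2% and 28.6% of all tested did. In a fit of all 1096 names with no filter, 0.0912% passed the adjusted and 11.2% the unadjusted threshold, and none of the 8 was among them. The median log2 change of the 4 tested, KO minus WT, was -0.24, beside -0.08 over all miRNAs tested, with 3 of the 4 lower and 1 higher. miR-34a, miR-34c, miR-146b and miR-155 were too dim for the test and are described by their values.

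**Figure D1:**
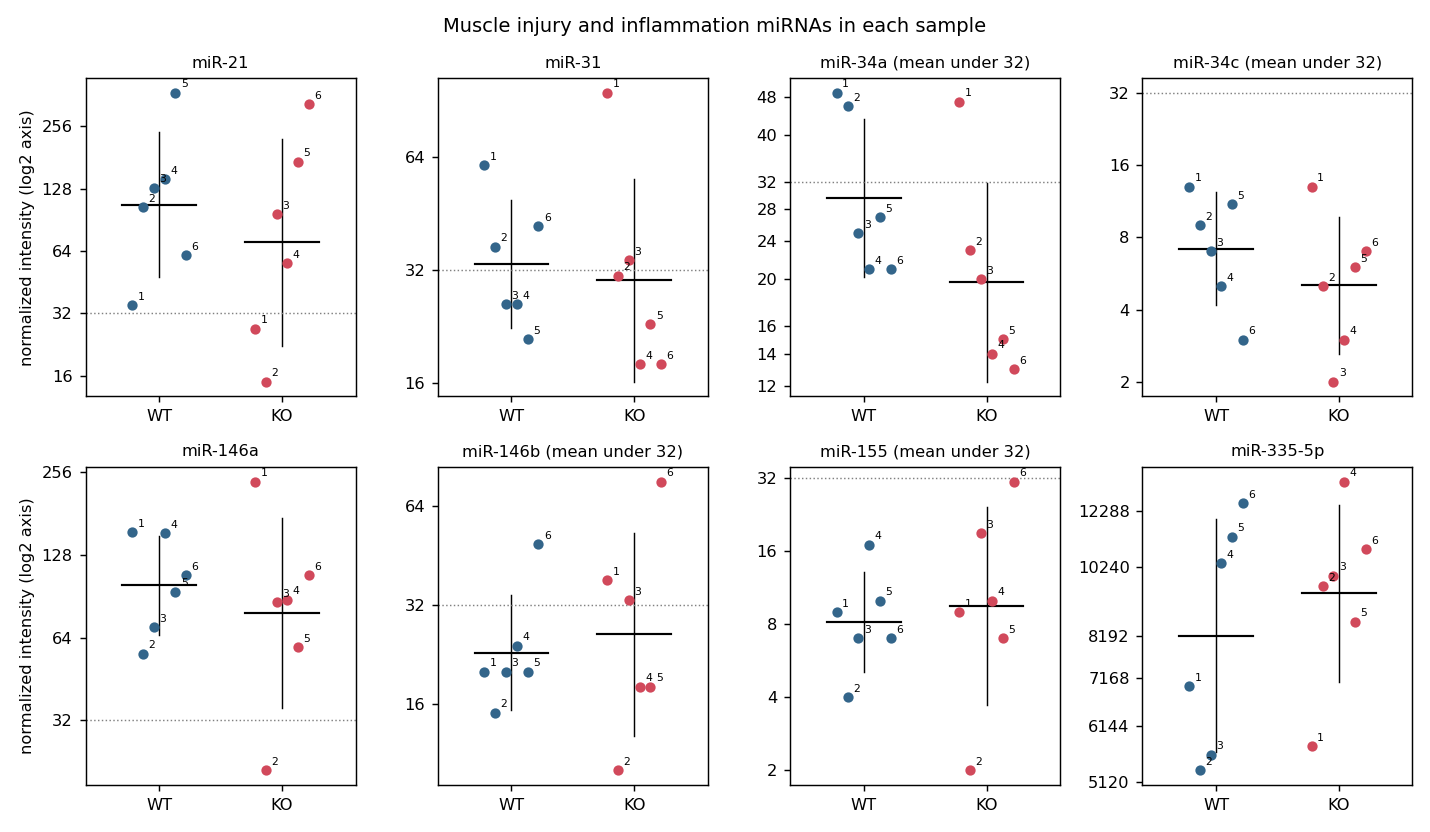
Normalized intensity (log2 axis, a different range in each panel) of the 8 miRNAs in 6 WT (blue) and 6 KO (red) samples. Numbers are the sample numbers, horizontal lines geometric means, vertical lines 1 SD on the log2 scale, and the dotted line an intensity of 32. The WT and KO groups overlap in every panel, and miR-21 spreads from 15 to 370.

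miR-21, which accompanies fibrosis, varied far more among mice than between genotypes. In WT its intensity ran from 35 to 370 with a median of 116.5. In KO it ran from 15 to 326 with a median of 76. WT1, KO1 and KO2 were low and WT5 and KO6 were high, and both genotypes had mice at each end. The highest WT value was 10.6 times the lowest, and the highest KO value 21.7 times the lowest. The means were 140.2 ± 119.7 for the WT mice and 115 ± 118 for the KO mice (mean ± SD, n = 6 each). The log2 change was -0.60 (95% confidence interval -2.16 to 0.95, adjusted p = 0.714 from limma), which leaves ratios of KO to WT from 0.223 to 1.94. With 1 sample left out the change ran from -1.05 without KO6 to -0.16 without KO2. Its SD within groups, 1.43 on the log2 scale, was rank 9 of the 370 miRNAs tested, whose median was 0.55.

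miR-31 acts in satellite cells, the stem cells of muscle, where it holds back Myf5, and it also targets dystrophin. It was between 21 and 61 in WT, with a median of 31.5, and between 18 and 95 in KO, with a median of 27. KO1 was the highest of all samples and WT1 the next, whereas KO4 and KO6 were the lowest. The means were 35.5 ± 14.7 for WT and 36.5 ± 29.4 for KO (± SD, n = 6 each). The log2 change of -0.14 (SE 0.399, adjusted p = 0.898 from limma) was close to 0 and had no stable sign. It was 0.03 without WT1 and -0.47 without KO1, and the ratio of arithmetic means was slightly over 1, at 0.04 on the log2 scale. Only 3 WT and 2 KO samples reached an intensity of 32.

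miR-146a is induced by NF-kB and represses Traf6 and Irak1, so that it damps inflammatory signalling. It ran from 56 to 155 in WT, with a median of 101, and from 21 to 237 in KO, with a median of 87. The KO samples held both the lowest value, in KO2, and the highest, in KO1. With means of 106 ± 41.6 for the WT mice and 99.8 ± 73.6 for the KO mice (mean ± SD, n = 6 each), the log2 change was -0.33 (95% confidence interval -1.36 to 0.69, adjusted p = 0.763 from limma). Single samples decided its sign, since it was -0.65 without KO1 and 0.05 without KO2. miR-146b, from another chromosome, was dimmer, at 15 to 49 in WT (median 20) and 10 to 76 in KO (median 25.5). KO2 was again the lowest of the 12 and KO6 the highest. Its means were 24.7 ± 12.3 for WT and 32.2 ± 23.9 for KO (± SD, n = 6 each), and the difference of 0.19 on the log2 scale had a two-sided exact permutation p of 0.721. Without KO6 that difference was -0.12.

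miR-155, which acts in macrophages and lymphocytes and is processed from a noncoding host transcript, was dim in both groups. Its intensity was 4 to 17 in WT (median 8) and 2 to 31 in KO (median 9.5). No sample reached 32. KO3 and KO6 were above every WT sample and KO2 was below every one. The means were 9 ± 4.43 for WT and 13 ± 10.4 for KO (± SD, n = 6 each), with a difference of 0.22 on the log2 scale (two-sided exact permutation p = 0.751). It was -0.12 without KO6 and 0.67 without KO2. The low values of the leukocyte markers given above come from the same samples. Their part in the readings of miR-146a, miR-146b and miR-155 was not tested.

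miR-335-5p was the only one of the 8 with a mean intensity over 200, and the one measured with the narrowest interval. Its host gene Mest is expressed from the paternal allele. In WT it ran from 5318 to 12598 with a median of 8676. In KO it ran from 5753 to 13496 with a median of 9790.5. Values of WT4, WT5 and WT6 lay among those of the KO samples, while WT2, WT3 and KO1 were the lowest. The means were 8694 ± 3123 for WT and 9712 ± 2554 for KO (± SD, n = 6 each). The log2 change was 0.20 (95% confidence interval -0.40 to 0.80, adjusted p = 0.763 from limma), or a ratio of 1.15 with bounds of 0.756 and 1.74. With 1 sample left out the change ran from 0.07 without WT2 to 0.34 without KO1 (adjusted p = 0.397 from limma without KO1), and it was 0.09 without WT3 or KO4. miR-335-3p, from the other strand of the same hairpin, was near the limit for testing at 21 to 37 in WT and 18 to 49 in KO, and changed by 0.35 (95% confidence interval -0.24 to 0.94, adjusted p = 0.536 from limma). Without KO1 it was 0.55 (unadjusted p = 0.0252, adjusted p = 0.111 from limma).

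miR-34a and miR-34c belong to a p53-responsive family that restrains the cell cycle. miR-34a was at 21 to 49 in WT, with a median of 26, and at 13 to 47 in KO, with a median of 17.5. KO3, KO4, KO5 and KO6 lay below every WT sample, and KO1 was higher than all WT samples but WT1. The means were 31.5 ± 12.6 for WT and 22 ± 12.8 for KO (± SD, n = 6 each), and the difference on the log2 scale was -0.58 (two-sided exact permutation p = 0.141). Without KO1 it was -0.83 (two-sided exact permutation p = 0.0173). In a limma fit of all 1096 names without KO1, its adjusted p was 0.183 and its unadjusted p 0.0160, where 0% of all names passed the adjusted and 17.1% the unadjusted threshold of 0.05. With values under 32 raised to 32 the difference was -0.10 with all samples, since 4 of the WT and 5 of the KO values lie under that floor. miR-34c was at 3 to 13 in WT (median 8) and 2 to 13 in KO (median 5.5), with means of 8 ± 3.74 for WT and 6 ± 3.90 for KO (± SD, n = 6 each) and a difference of -0.51 on the log2 scale (two-sided exact permutation p = 0.348). Both WT1 and KO1 had its highest value, 13.

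The Mir34b and Mir34c hairpins gave brighter readings from the probes for their other strands. These are not among the 8 and are shown because they come from the same hairpins.
miR-34b-3p: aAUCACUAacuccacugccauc
miR-34c*: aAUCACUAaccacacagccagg
RefSeq places these strands at chr9:51103574-51103595 and chr9:51103044-51103065 of GRCm38.p6, both on the minus strand, and names the latter miR-34c-3p. They share the capitalised seed and are identical at 17 of 22 bases. miR-34c* ran from 337 to 1510 in WT (median 1072.5) and from 95 to 1654 in KO (median 1301.5). Only KO1 was below every WT sample and only KO4 above every one. WT1 and KO1, which had the highest value of miR-34c (13), had the lowest of their groups for miR-34c* (337 and 95). The readings of miR-34c* are therefore not used in place of those of miR-34c. Whether the strands differ was not tested, and miR-34c was at 2 to 13, about or under the sample medians of 12 to 14. The log2 change of miR-34c* was -0.27 (95% confidence interval -1.63 to 1.09, adjusted p = 0.876 from limma), and 0.33 without KO1. miR-34b-3p ran from 79 to 191 in WT (median 141.5) and from 37 to 446 in KO (median 234). KO2, KO3, KO4 and KO5 were above all WT samples and KO1 and KO6 below all of them, so that KO mice lay on both sides of the WT range. Its log2 change was 0.33 (95% confidence interval -0.83 to 1.49, adjusted p = 0.799 from limma), and ran from 0.05 without KO2 and 0.11 without KO4 to 0.76 without KO1 (adjusted p = 0.226 from limma without KO1).

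**Figure D2:**
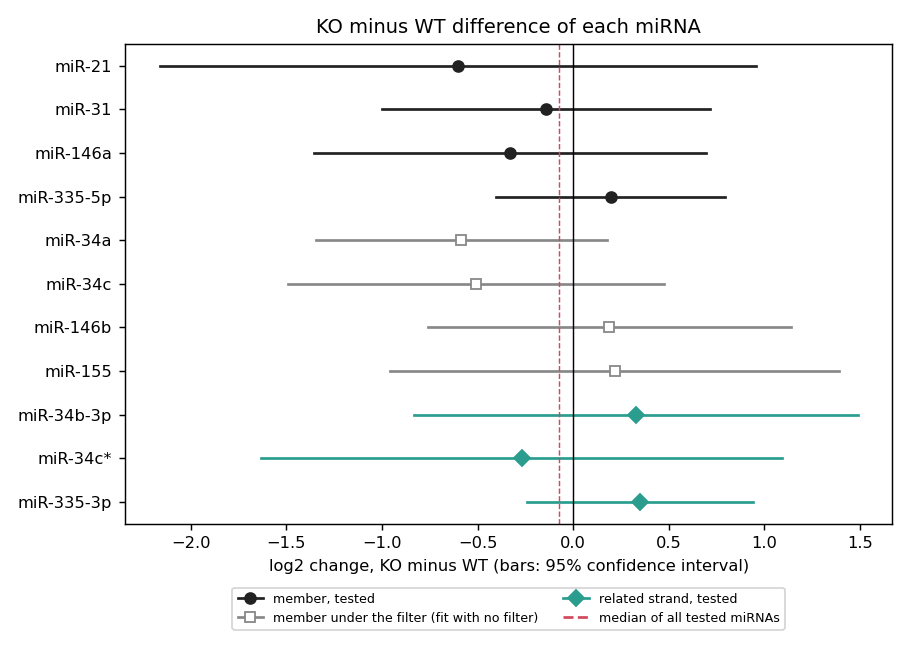
Log2 change, KO minus WT, with its 95% confidence interval from limma for the 8 miRNAs and 3 related strands. Filled symbols were tested among 370 miRNAs, open squares are miRNAs under the filter taken from the fit of all 1096 names, and the dashed line marks the median of all tested miRNAs, -0.08. Every interval crosses 0, and that of miR-21 is the widest.

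Further strands, seed relatives and other miRNAs of dystrophic muscle were counted in the same fits. Of 16 names listed, 14 were on the array and 3 were bright enough to test (miR-34b-3p, miR-34c* and miR-335-3p). With all samples 0 of the 3 passed the unadjusted threshold of 0.05 in limma, where 19.5% of all tested did. Without KO1, 1 passed it (miR-335-3p), where 28.6% did. With array weights, which gave KO1 the lowest weight, miR-335-3p and miR-34b-3p passed it (0.72 and unadjusted p = 0.0329 from limma for miR-34b-3p). Of these, miR-335-3p also passed the adjusted threshold. In that fit 156 of the 370 tested miRNAs passed the unadjusted and 115 the adjusted threshold. The other 11 of the 14 names, including miR-449a, miR-449b, miR-449c, miR-21*, miR-31*, miR-146a* and miR-155*, were at 30 or less in all samples. Of 8 further miRNAs known to change in dystrophic muscle, 4 were tested (miR-1a, miR-206, miR-222 and miR-494), and 0 passed the unadjusted threshold in limma with all samples, with a median log2 change of -0.06. Without KO1, 1 of the 4, miR-222, passed the unadjusted and the adjusted threshold, where 28.6% and 13.2% of all tested miRNAs did. Of these 4, miR-222, linked to inflammation and to myoblast growth, was the only 1 whose call changed without KO1. Such a change was not particular to miR-222: over all tested miRNAs, 5 passed the adjusted threshold with all samples and 49 without KO1. It was at 72 to 170 in WT and at 34 to 54 in KO2 to KO6, with KO1 the highest of all at 240, and its log2 change was -0.88 (95% confidence interval -1.83 to 0.06, unadjusted p = 0.0641, adjusted p = 0.282 from limma). Without KO1 all KO values lay below all WT values, and the change was -1.31 (95% confidence interval -1.85 to -0.77, adjusted p = 0.0103 from limma). The share of all tested miRNAs whose groups did not overlap was 2.43% with all samples. It was not counted without KO1, so the separation of miR-222 cannot be set against it. miR-206, a muscle miRNA of regenerating fibres, differed by -0.08 (95% confidence interval -0.43 to 0.26) and had the smallest SD within groups of the 370 miRNAs, 0.14 on the log2 scale.

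Among the mice of a group, some of the 8 went together and others were opposed. Spread within groups was larger in KO than in WT for 7 of the 8, all but miR-335-5p, where 78.6% of all tested miRNAs did the same. Without KO1 the count was 4 of 8, beside 60.5% of all tested miRNAs. KO1 held or shared the highest intensity of the 12 samples for 3 of the 8 (miR-31, miR-34c and miR-146a), and KO2 the lowest for 4 (miR-21, miR-146a, miR-146b and miR-155). Deviations from the group means were correlated over the 12 samples as a description, and no test was made. These values share normalization, and a dye is shared only by samples of the same genotype. miR-146a, miR-146b and miR-155 went together with r of 0.66 to 0.74, and KO2 was low for all 3. Without KO2 these were 0.38 to 0.58. Both miR-146b and miR-155 were under the filter, and KO2 read 10 and 2 for them. Readings of miR-146a and miR-146b may not be separate, as said above. miR-31 and miR-34a had r = 0.85, which was 0.69 without KO1, the sample farthest above its group for both. miR-21 and miR-31 were opposed, with r = -0.68 (-0.95 in WT and -0.56 in KO). miR-34b-3p and miR-34c* had r = 0.88, and 0.73 without KO1. This likeness was not particular to the pair. Of the tested miRNAs most like miR-34b-3p, miR-34c* was rank 21. With miR-335-3p, from another chromosome, r was 0.85 for miR-34b-3p and 0.86 for miR-34c* (0.68 and 0.64 without KO1). Both strands of miR-335 had r = 0.49, which fell to 0.18 without KO1.

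**Figure D3:**
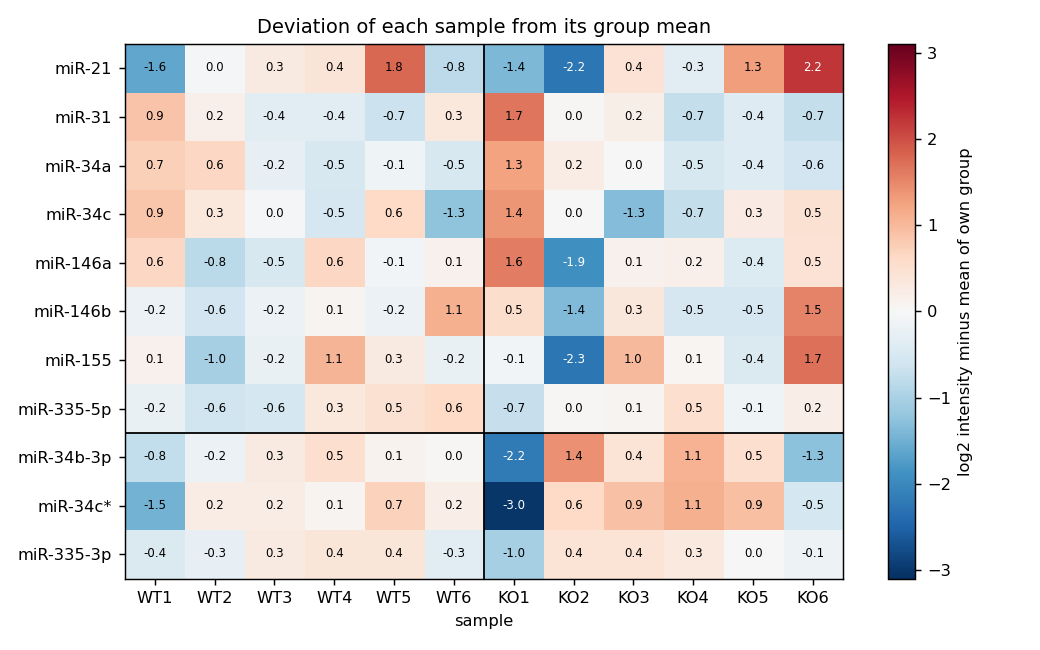
Deviation of each sample (columns) from the mean log2 intensity of its own group for the 8 miRNAs (upper rows) and 3 related strands (lower rows), red above and blue below. KO1 is high on miR-31, miR-34a, miR-34c and miR-146a and low on miR-34b-3p and miR-34c*, and KO2 is low on miR-21, miR-146a, miR-146b and miR-155.

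For each of the 4 tested miRNAs, the most similar pattern of deviations among the other 369 was sought. For miR-21 it was miR-322 (r = 0.98, n = 12 samples), which was at 38 to 225 in WT and 24 to 184 in KO, highest in WT5 and KO6 as miR-21 was. The correlation was 0.99 in WT and 0.97 in KO. For miR-31 it was miR-351* (r = 0.98, n = 12 samples), at 34 to 86 in WT and 30 to 92 in KO. As many as 16 miRNAs had r over 0.9 with miR-31, against 4 with miR-21, 1 with miR-146a and 0 with miR-335-5p. Over all 12 samples, more miRNAs thus followed the pattern of miR-31 than that of the other 3. These counts include KO1, which lay 1.66 above its group mean for miR-31 on the log2 scale. They were not repeated without it, so how far they rest on KO1 is not known. miR-146a was most like miR-195 (r = 0.94, n = 12 samples; 0.91 in WT and 0.96 in KO), at 328 to 647 in WT and 162 to 603 in KO. miR-335-5p was most like miR-3072* (r = 0.81, n = 12 samples), and this was 0.72 without KO1.

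**Figure D4:**
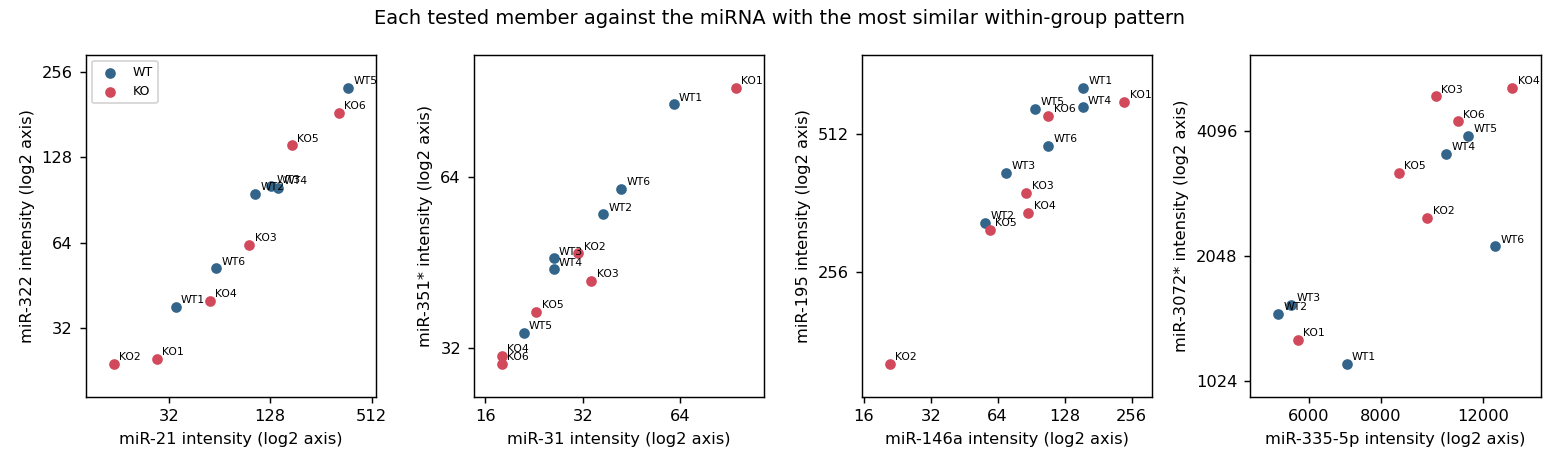
Normalized intensities (log2 axes) of the 4 tested miRNAs against the miRNA whose deviations from the group means were most similar, in WT (blue) and KO (red) samples. The points of miR-21 and miR-322 lie along a line from KO2 and KO1 at the bottom to WT5 at the top, with WT and KO samples mixed along it.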

How the data were processed

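MicroRNA was profiled in quadriceps of 6 WT and 6 KO mice, with genotype and replicate number read from the sample titles. The authors deposited normalized intensity values, linear and in whole numbers; total RNA from mirVana kits was hybridized by LC Biosciences. The normalization, background correction and treatment of repeated spots are not given in the sources used here.

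Values under 1 were raised to 1 and log2 transformed, names with a mean intensity under 32 were left out (370 remained), and the genotypes were compared by limma 3.58.1 (R 4.3.3), two-sided, with Benjamini-Hochberg adjustment over all names tested. Exact permutation tests enumerated 924 assignments of the samples, or 462 without KO1, on log2 means; the smallest p that 6 against 6 allows is 0.0022. No counts lie behind an intensity, so that the number of mice limits the precision. The test was checked on simulated data. These had independent noise, equal spread in both groups and no outlying sample, so they do not show how the test performs on the present data. Alternative settings changed the scaling (cyclic loess, quantiles or median centring), the filter (none, or a mean of 200 or more), the low values (raised to 32, or 50 added), the model (array weights, a variance trend, the t-test that the methods name for mRNA arrays, or replicate number as a block), the summary (ratios of arithmetic means) and the samples (each left out in turn). The 8 miRNAs, the lists and the most similar miRNAs named by rule (every member, list members past the threshold or used in a result, and the 1 most correlated miRNA for each tested member) were chosen with earlier results of these data known. Sequences and positions are RefSeq's for GRCm38.p6; miR-21 was matched as miR-21a-5p, and the other unstarred names as the strand from the hairpin's 5′ arm. Plots used matplotlib 3.10.9.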

Additional observations from a re-analysis of the deposited data

Results flagged for a closer look

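In each group of 6, the gap between the highest or lowest mouse and its neighbour was divided by the group's range of log2 intensities and set against the 95% critical value of Dixon's outlier test. Of 20 groups examined so (the 8 miRNAs, miR-34b-3p and miR-34c*, each in WT and KO), 1 was past it, and chance alone gives about 1. It was miR-34c* in WT, where WT1 read 337 while WT2 to WT6 read 985 to 1510, which gave 0.715. Leaving WT1 out moved the log2 change of miR-34c* from -0.27 to -0.56 (adjusted p = 0.753 from limma).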

How the results depend on the processing

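None of the 4 tested miRNAs passed an adjusted or unadjusted p of 0.05 in any of the 24 fits of miR-21, miR-31 and miR-146a or the 25 fits of miR-335-5p; their adjusted p-values from limma and the methods' t-test ran from 0.388 to 0.964, 0.284 to 0.997, 0.298 to 0.975 and 0.180 to 0.935. In every such fit miR-21 was lower and miR-335-5p higher in KO. miR-31 changed sign with a floor of 32 (0.0208) and as a ratio of arithmetic means (0.0401), and ran from -0.47 to 0.0335 with a sample left out (above 0 without WT1, KO4 or KO6). miR-146a ran from -0.65 to 0.0509 with a sample left out. miR-34c*, -0.27 as reported, was 0.28 with array weights, 0.0660 as a ratio of arithmetic means and -0.56 to 0.33 with a sample left out. KO1 had the lowest array weight, 0.156. miR-34b-3p (0.33) was 0.72 with array weights (unadjusted p = 0.0329) and 0.05 to 0.76 with a sample left out, and miR-335-5p (0.20) was 0.45 with array weights and 0.07 to 0.34 with a sample left out. Outside the 8, miR-222 also passed the adjusted threshold with array weights, where 115 of all miRNAs tested passed it and 156 the unadjusted threshold. The cause was not tested for these. The dim miR-34c and miR-155 differed by 0 with a floor of 32, under which all their values lie.

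Over all miRNAs tested, 5 passed the adjusted and 72 the unadjusted threshold. The adjusted count was 14 with a pseudocount of 50, 1 with no filter, 19 with a mean of at least 200, 8 after quantile normalization, 11 after cyclic loess, 14 with a variance trend and 115 with array weights. It was 3 to 49 with a sample left out (3 without WT3 or KO2, 8 without KO4, 11 without WT4, 49 without KO1). The unadjusted count was 123 with no filter, 156 with array weights and 57 to 106 with a sample left out. With the replicate number as a block the counts were 4 and 89 (4 and 77 with cyclic loess), and no member passed, while miR-222 passed the unadjusted threshold. The numbers are not stated to mark littermates or a shared array, and a pairing was not tested. Deviations of same-numbered samples correlated by more than 0.1 in 3 of 6 pairs, and 5 of 12 samples correlated best with their own number. From number 1 to number 6, r was 0.59, 0.02, -0.26, 0.22, 0.48 and -0.45.

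A dye effect, the unstated normalization and the brightness of probes near the array's median limit what the dim miRNAs can show.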
